A study of Mus musculus with 2 samples.

Results

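Mir219a-1, Mir219a-2, Mir338, Mir138-1 and Mir138-2, the microRNA hairpin genes associated with the oligodendrocyte lineage, were followed in mouse hindbrain at embryonic day 16.5. They were chosen by gene symbol through their Ensembl identifiers, and all 5 were found among the 1973 genes listed in each count table. The series holds 1 group of 2 libraries, replicates 1 and 2, each from its own pool of healthy B6NCrl embryos of both sexes. Replicate 2 was pooled from 37 embryos, and no number was given for replicate 1. There was no second tissue, age or treatment, so the values below describe levels, ratios within a library and the difference between the 2 pools.

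A microRNA is cut from an RNA hairpin as a short strand from its 5′ arm (5p), its 3′ arm (3p) or both, and bases 2 to 8 of that strand, the seed, guide it to messenger RNAs. Oligodendrocytes make the myelin of the central nervous system. In mice miR-219 and miR-338 accumulate as oligodendrocyte precursors differentiate, and they repress genes that hold precursors back, such as Sox6, Hes5 and Pdgfra. miR-138 has also been tied to oligodendrocyte differentiation in mice and acts in neurons, where it limits the size of dendritic spines in rat hippocampal cells.

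The 5 hairpins make 3 families, and their mature sequences are shown because they decide which reads can be told apart. Sequences are those of RefSeq for GRCm38.p6, the assembly of mm10, where all 5 hairpins were matched. Each is written 5′ to 3′ with the seed in capitals. The first sequence comes from both Mir219a hairpins and the third from both Mir138 hairpins.
miR-219a-5p: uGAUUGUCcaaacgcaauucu
miR-219a-1-3p: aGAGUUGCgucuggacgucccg
miR-138-5p: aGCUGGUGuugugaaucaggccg
miR-138-1-3p: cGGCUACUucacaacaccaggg
miR-138-2-3p: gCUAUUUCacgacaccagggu
miR-338-5p: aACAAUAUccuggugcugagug
miR-338-3p: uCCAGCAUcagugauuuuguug

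Within this set the seed of miR-219a-5p is shared by Mir219a-1 and Mir219a-2, and that of miR-138-5p by Mir138-1 and Mir138-2. No other gene of the RefSeq table carried any of these 7 seeds at bases 2 to 8 of a mature sequence. The listed 3p strands of the copies differ. RefSeq listed no 3p strand for Mir219a-2, and which arm of that hairpin its counts come from was not tested. miR-138-1-3p had 2 mismatches to its closest stretch in Mir138-2 over 22 bases, and miR-219a-1-3p had 7 to its closest stretch in Mir219a-2 over 22 bases.

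The whole hairpins of the paired copies show how little separates their 5p reads. Capitals mark the longest run that the 2 copies of a family share, 22 bases in Mir219a and 24 bases in Mir138. Mir219a-2 lies at chr2:29845631-29845727 on the minus strand, Mir219a-1 at chr17:34024983-34025092 on the minus strand, Mir138-1 at chr9:122682876-122682974 on the plus strand and Mir138-2 at chr8:94324311-94324381 on the plus strand (mm10).
Mir219a-2: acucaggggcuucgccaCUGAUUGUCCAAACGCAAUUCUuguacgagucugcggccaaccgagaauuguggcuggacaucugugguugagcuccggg
Mir219a-1: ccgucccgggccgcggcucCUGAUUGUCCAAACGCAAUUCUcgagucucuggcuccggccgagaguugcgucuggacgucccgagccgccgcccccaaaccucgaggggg
Mir138-1: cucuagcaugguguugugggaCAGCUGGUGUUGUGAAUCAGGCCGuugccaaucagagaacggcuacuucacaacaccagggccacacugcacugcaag
Mir138-2: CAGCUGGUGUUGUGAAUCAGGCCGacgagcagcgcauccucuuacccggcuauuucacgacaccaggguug

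Each shared run holds the complete 5p strand, so a read that ends inside it fits both copies. Of the 22-base windows of a hairpin, 1 of 76 in Mir219a-2 and 1 of 89 in Mir219a-1 also occurred in a hairpin at another locus, and 3 of 78 in Mir138-1 and 3 of 50 in Mir138-2 did so. Mir338 had 0 of 77 such windows. Of the 5 hairpins, 4 thus hold a mature sequence that another hairpin holds too, against 94 of 991 hairpins in the RefSeq table (9.49%) and 43 of the 326 detected genes found in it (13.2%). The deposited tables give reads that map to several places only as a total, 34.5% of all reads in replicate 1 and 35.1% in replicate 2. The counts of Mir219a-1, Mir219a-2, Mir138-1 and Mir138-2 below need not therefore equal the amounts of miR-219a-5p and miR-138-5p, and how many of the reads in that total belong to these strands is not known.

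**Figure D1:**
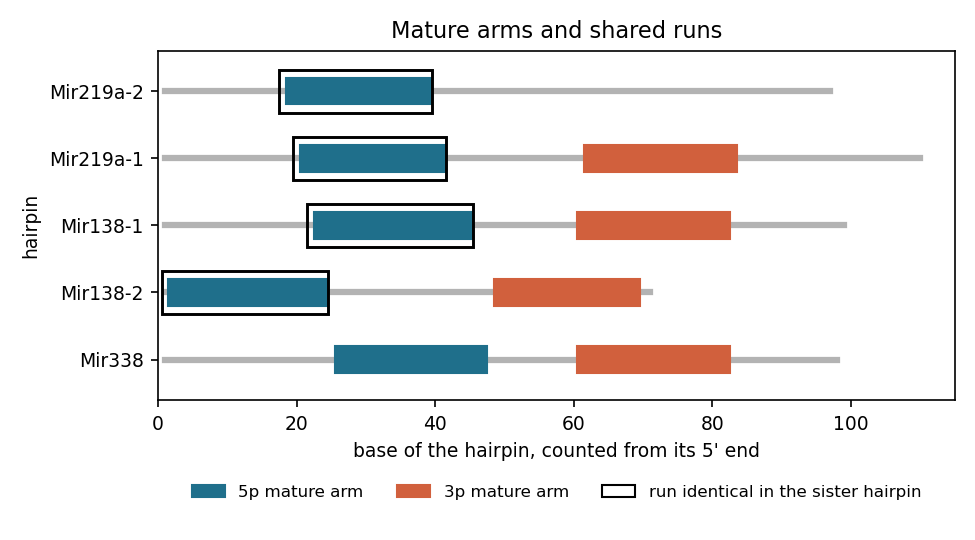
Position of the mature arms listed by RefSeq along the 5 hairpins, in bases from the 5′ end. Open boxes mark the run that is identical in the sister copy, 22 bases in Mir219a and 24 bases in Mir138, which encloses the 5p arm in all 4 copies, while Mir338 has no box.

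The hairpins lie in unlike surroundings in GENCODE M21. Mir338, at chr11:120014765-120014862 on the minus strand, sits inside Aatk, a kinase gene active in the nervous system, in an intron of 6 of its 9 transcripts and in an exon of 0. Mir138-2 overlaps an exon of the long noncoding gene C78859, and Mir138-1 an exon of 1 of the 2 transcripts of the transcribed pseudogene Gm47135. Mir219a-1 overlaps the noncoding gene Gm26940 and lies 302 bases from Ring1, a Polycomb gene. Mir219a-2 lies between genes, 628 bases from Urm1. The count table names Mir138-2 by an earlier version of its identifier (ENSMUSG00000065512.2) than GENCODE M21 (version 3), and its bounds in the counting annotation were not checked.

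Mir219a-2, Mir219a-1 and Mir338 each have an annotated microRNA on the other strand. Mir219b overlaps Mir219a-2 over 65 bases, Mir219c overlaps Mir219a-1 over 60 bases and Mir3065 overlaps Mir338 over 87 bases. These genes had no entry of their own in the count tables, so the opposite-strand column of each member stands at their positions. On that strand Mir219a-2 had 3 counts in replicate 1 and 2 in replicate 2, Mir219a-1 had 3 and 6, and Mir338 had 1 in each. At Mir138-1 and Mir138-2 it held 0 counts in both libraries, under the limit of 3 counts that a count of 0 allows. Opposite-strand reads made up at most 0.0523% of the reads assigned to Mir219a-2 and Mir338. At Mir219a-1 they made up 0.334% and 1.02% in replicates 1 and 2. The sense counts below thus hold nearly all reads assigned to these loci, but not those counted only in the multimapping total.

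Levels are given in CPM, which scales the sense count of each hairpin to a library of 1000000 sense counts. Replicate 1 held 5097205 sense counts and replicate 2 held 4460836. A read covers a whole small RNA, so CPM was not divided by hairpin length. Intervals are 95% exact binomial (Clopper-Pearson) intervals and cover counting error only. In whole tissue, fewer cells of a type and less RNA per cell cannot be told apart.

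Mir219a-2 was the most abundant of the 5. It had 9342 counts in replicate 1 and 6528 in replicate 2, which is 1833 CPM (interval 1796 to 1870.3) and 1463 CPM (1428 to 1499). Mir219a-1, the other source of miR-219a-5p, was the least abundant, with 896 and 583 counts, or 176 CPM (164 to 188) and 131 CPM (120.3 to 142). In both libraries the Mir219a copies thus took the top and the bottom place.

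Mir138-1 had 5738 counts in replicate 1 and 4162 in replicate 2, which is 1126 CPM (1097 to 1155) and 933 CPM (905 to 962). Mir138-2 had 3634 and 2940 counts, or 713 CPM (689.95 to 736) and 659 CPM (635 to 683). Both Mir138 copies stood between the Mir219a copies. Mir338, whose mature strands come from no other listed hairpin, had 2065 and 1911 counts, or 405 CPM (388 to 423) and 428 CPM (409 to 448). It was the only 1 of the 5 with the higher CPM in replicate 2.

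The order Mir219a-2, Mir138-1, Mir138-2, Mir338, Mir219a-1 held in both libraries. The SD over the 2 libraries was 15.8% of the mean for Mir219a-2, 13.2% for Mir138-1, 5.55% for Mir138-2, 3.95% for Mir338 and 20.8% for Mir219a-1. The least abundant hairpin varied most on these plain totals. The smallest spread depended on the total, since with TMM scaling (trimmed mean of M values) it was 2.38% for Mir138-2 and 7.12% for Mir338.

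**Figure D2:**
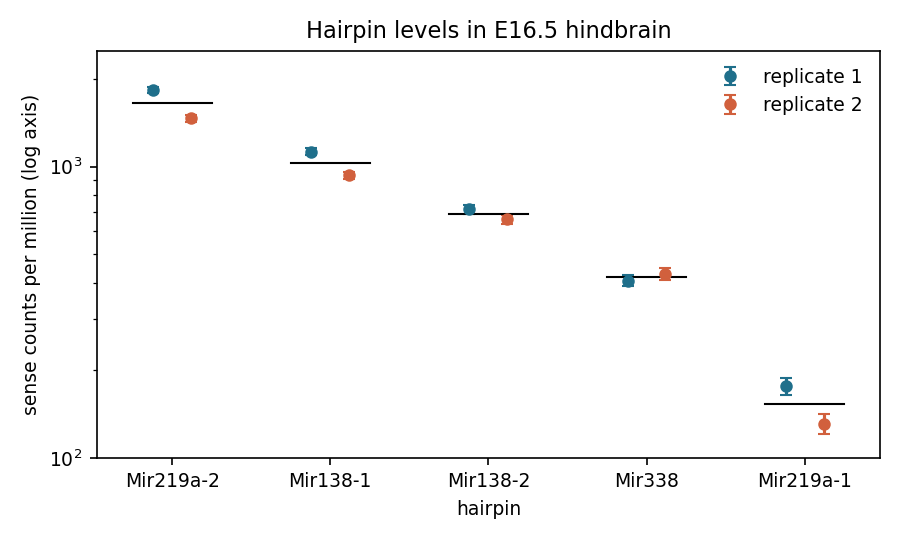
CPM of each hairpin in replicate 1 and replicate 2 (log axis), with the exact binomial 95% interval of each library and the mean of both as a black line. The means descend from 1648 CPM for Mir219a-2 to 153 CPM for Mir219a-1, and the points of Mir338 lie closest together for their level.

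The Mir219a copies together held 2009 CPM in replicate 1 and 1594 CPM in replicate 2, and the Mir138 copies 1839 and 1592 CPM. The log2 ratio of the Mir219a sum over the Mir138 sum was 0.13 in replicate 1 and 0.00 in replicate 2, a mean of 0.06 ± 0.09 (SD, n = 2), which did not pass the limit of 2 SD used here for ratios. The Mir219a sum was higher than Mir338 by a log2 ratio of 2.10 ± 0.29 and the Mir138 sum by 2.04 ± 0.20 (SD, n = 2), and both passed that limit. Reads that map to several places are given only as a total, apart from the gene counts. A read of the mature strand that both copies of a family share fits both copies. The Mir219a and Mir138 sums may therefore lack such reads, and how many are missing was not tested. The ratios above compare assigned counts and need not rank the mature strands.

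The assigned counts were split unequally between the copies of a family. Reads that fit both copies may be missing from them. The shares below therefore need not be the parts of miR-219a-5p or miR-138-5p that each copy supplies. Mir219a-2 held 91.2% of the Mir219a counts in replicate 1 (interval 90.7% to 91.8%) and 91.8% in replicate 2 (91.1% to 92.4%), and the intervals overlapped. Mir138-1 held 61.2% of the Mir138 counts in replicate 1 (60.2% to 62.2%) and 58.6% in replicate 2 (57.4% to 59.8%), intervals that did not overlap. Of the counts of all 5 hairpins, Mir338 held 9.53% in replicate 1 (9.14% to 9.93%) and 11.9% in replicate 2 (11.4% to 12.4%), so its part of the set differed between the pools by more than counting error.

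With 2 libraries an exact sign-flip test of a ratio reaches p = 0.5 at best, so a pair of hairpins was called by a rule instead: the same order in each library and a mean log2 ratio larger than 2 SD. All 10 pairs passed, against 91.9% of all pairs of the 385 genes with at least 10 counts in both libraries, a share so high that passing says nothing particular about these hairpins. The sizes ranged widely. Mir219a-2 over Mir219a-1 was 10.4-fold in replicate 1 and 11.2-fold in replicate 2, a log2 ratio of 3.43 ± 0.07 (SD, n = 2). Mir138-1 over Mir138-2 was 1.58-fold and 1.42-fold, a log2 ratio of 0.58 ± 0.11. Mir219a-2 exceeded Mir138-1 by 0.68 ± 0.04, the steadiest of the 10 log2 ratios.

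The ratios that include Mir338 shifted between the pools to unlike degrees. Mir338 over Mir219a-1 was 2.30-fold in replicate 1 and 3.28-fold in replicate 2, a log2 ratio of 1.46 ± 0.36 (SD, n = 2), the least steady of the 10. Mir219a-2 over Mir338 was 4.52-fold and 3.42-fold, a log2 ratio of 1.97 ± 0.29, and Mir138-1 over Mir338 was 2.78-fold and 2.18-fold, a log2 ratio of 1.30 ± 0.25. Mir138-2 over Mir338 was 1.76-fold and 1.54-fold, a log2 ratio of 0.72 ± 0.14.

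Among all genes the 5 hairpins stood in the middle to upper part of the detected range. By mean CPM Mir219a-2 ranked 80, Mir138-1 96, Mir138-2 111, Mir338 136 and Mir219a-1 192. The ranks were 75 and 85 for Mir219a-2 in replicates 1 and 2, 136 and 135 for Mir338, and 180 and 199 for Mir219a-1. Of the 385 detected genes, 79.2% had a lower mean than Mir219a-2 and 50.1% a lower mean than Mir219a-1, and the median detected gene had 150.2 CPM.

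**Figure D3:**
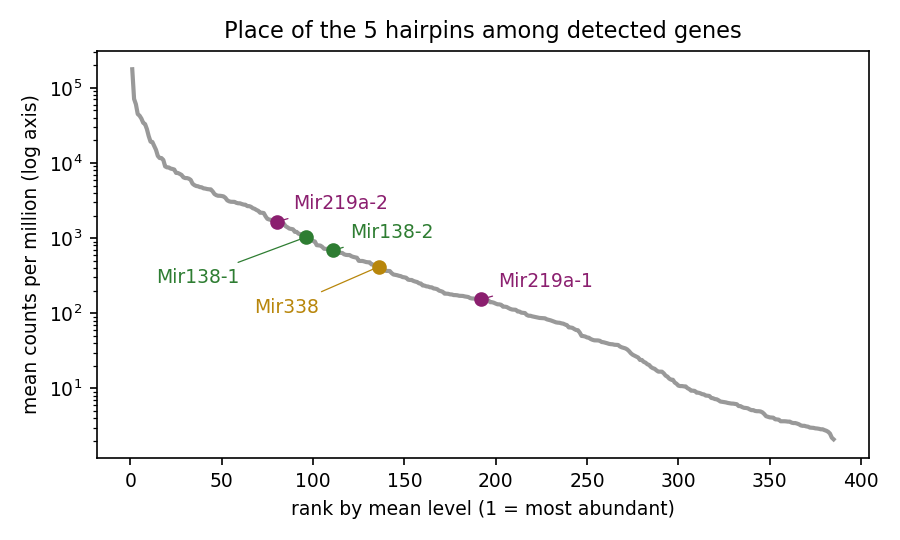
Mean CPM (log axis) of the 385 detected genes in order of abundance, with the 5 hairpins marked. Mir219a-2 at rank 80 to Mir338 at rank 136 lie on the upper slope, and Mir219a-1 at rank 192 lies at the middle.

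The genes nearest in mean level, taken as the 2 just above and the 2 just below each hairpin, give its equals in abundance. Mir219a-2 stood beside Mir154, Mir301, Mir101b and Mir125b-1, Mir138-1 beside Mir16-1, Mir615, Mir337 and Mir341, and Mir138-2 beside Mir27b, Mir3071, Mir181b-2 and Mir15b. Mir338 stood beside Mir485, Mir217, Mirlet7c-1 and Mir501, and Mir219a-1 beside Mir592, Mir410, Mir30b and Mir1306. Of these 20 ratios 1 passed the limit of 2 SD, Mir138-2 over Mir27b at a log2 ratio of -0.03 ± 0.002, a small difference that was nearly equal in both libraries. The other 19 ratios did not pass that limit. Because the neighbours were picked by closeness in the same CPM, small ratios follow from that choice and are no finding about the hairpins. Likeness here rests on closeness of mean CPM over 2 libraries.

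The 2 pools were then compared gene by gene. Counts were set against TMM-scaled totals with an exact two-sided binomial test, Benjamini-Hochberg adjusted over the 401 genes whose counts summed to 20 or more. The test allows for counting noise alone and sets 1 library against the other, so it says nothing about a condition. It called 4 of the 5 hairpins, against a background of 46.4% of all genes tested, so a call was common in these deeply counted libraries. Repeated on the 304 genes whose counts summed to 100 or more, it called 181, with 4 of the 5 hairpins among them. Mir219a-2, Mir138-1 and Mir219a-1 were lower in replicate 2 (24.4% of all genes were called in that direction), and Mir338 was higher in replicate 2 (21.9%).

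The size of these differences was modest. The log2 ratio of replicate 2 over replicate 1 was -0.36 for Mir219a-1 (interval -0.52 to -0.21; exact binomial, adjusted p = 8.09e-06), -0.26 for Mir219a-2 (-0.31 to -0.21; adjusted p = 2.84e-28) and -0.21 for Mir138-1 (-0.26 to -0.15; adjusted p = 1.12e-11). It was 0.15 for Mir338 (0.05 to 0.24; adjusted p = 0.00412) and -0.05 for Mir138-2 (-0.12 to 0.02; adjusted p = 0.297), which was not called. With TMM scaling 1 of the 5, Mir219a-1, differed by more than 25%, against 27.2% of all genes in either direction and 15.2% higher in replicate 1 by that much. The median ratio of the 5 was -0.21, against 0.00 over all genes, which TMM scaling centres by design. Regardless of direction, the median size of the log2 ratio was 0.21 for the 5 and 0.18 over all genes.

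Scaling decided which 4 were called. With plain totals, which shift every log2 ratio by -0.06, Mir219a-2 (-0.32) also differed by more than 25%, 48.1% of all genes were called, Mir338 was no longer called (0.08; exact binomial, adjusted p = 0.151) and Mir138-2 was called (-0.11; exact binomial, adjusted p = 0.00389). When a biological coefficient of variation (BCV) of 0.1 was assumed on top of counting noise, edgeR's exact test called 0 of the 5, with 0 at an unadjusted p under 0.05, against 1.75% of all genes. The adjusted p of that test lay between 0.726 for Mir219a-1 and 1 for Mir138-2. The common BCV that edgeR estimated from the 2 libraries, taken as 1 group, was 16.2%, so the assumed value was the smaller.

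**Figure D4:**
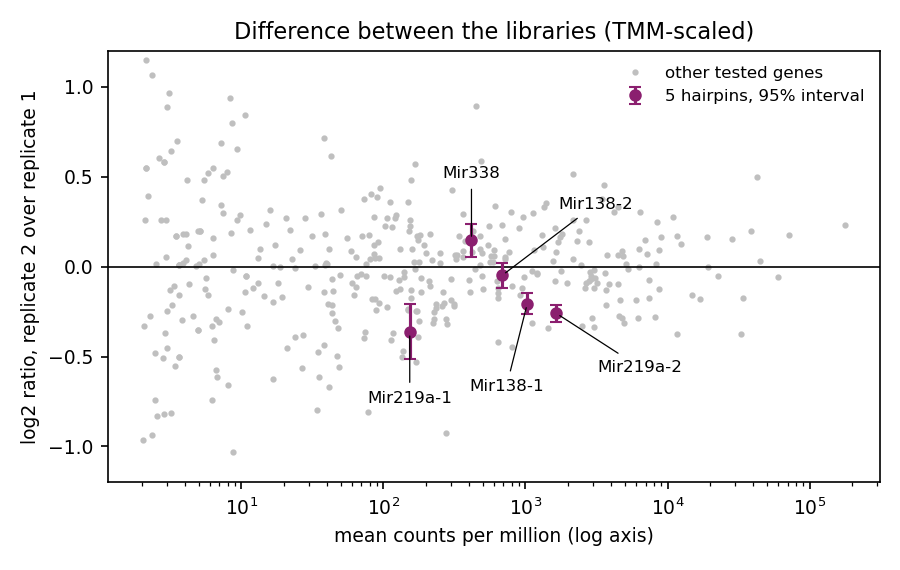
Log2 ratio of replicate 2 over replicate 1 after TMM scaling against mean CPM (log axis) for 393 genes, with 8 genes beyond 1.2 in either direction not drawn. Mir219a-2, Mir138-1 and Mir219a-1 lie below 0 with their exact binomial 95% intervals, Mir338 lies above 0, and the interval of Mir138-2 includes 0.

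Markers of other tissues and of further cell types, which may belong to the hindbrain itself, were read beside these differences. Of 6 listed skeletal muscle hairpins 5 were counted, and their sum was 24.9 CPM in replicate 2 against 375 CPM in replicate 1. Nearly all of it came from Mir206, with Mir133a-1, Mir133a-2 and Mir1a-1 at 0 in both. Reads that fit several hairpins may stand only in the multimapping total, so a count of 0 need not mean absence. The 3 sensory hair cell hairpins, Mir183, Mir182 and Mir96, came to 3416 CPM in replicate 2 against 3995 CPM in replicate 1. The 4 counted leukocyte and microglial hairpins summed to 366 CPM in replicate 2 against 401 CPM in replicate 1, the 3 erythroid hairpins to 206 and 216 CPM, Mir126a of endothelium to 29178 and 27475 CPM, and Mir122 of liver to 41.9 and 41.0 CPM. The part of these tissues and cell types in the ratios of the 5 hairpins was not tested.

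For the labelled tissue, the hindbrain-position hairpins Mir10a and Mir10b summed to 85868 CPM in replicate 2 against 100993 CPM in replicate 1, and the 8 counted neuronal hairpins to 12047 and 13391 CPM, led by Mir137. Mir137 had 7199 CPM in replicate 2 against 9157 CPM in replicate 1, whereas Mir128-1 had 2843 against 2489 CPM and Mir128-2 had 1533 against 1253 CPM. Mir9-3 had 467 against 485 CPM, Mir9-2 had 1.12 against 0.785 CPM, and Mir9-1 was not counted. All 3 Mir124a hairpins, which share a mature sequence, stood under 5 CPM in both libraries. Reads that fit several hairpins may be missing, so the neuronal sum need not measure the part of neurons in a pool. A microRNA table holds no messenger RNA, so the presence of oligodendrocyte precursors could not be checked against protein-coding markers, and miR-138 is not particular to that lineage.

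A list of other microRNAs studied in the oligodendrocyte lineage put these levels in context. Of its 25 members 22 were counted and 19 detected. The median was 136 CPM over all 22 counted, 1 of them at 0 in both libraries, against 686 CPM for the median of the 5 hairpins. Hairpins of either set may lack reads that fit several hairpins, so these medians compare assigned counts and need not rank the mature strands. The list was led by Mir17 of the miR-17-92 cluster, tied to precursor proliferation, at 11640.1 ± 2498 CPM (SD, n = 2). Mir23b followed at 8322 ± 211 CPM, Mir23a, which represses lamin B1, at 6293 ± 102 CPM, and Mir125a at 4598 ± 568 CPM. All 4 were more abundant than Mir219a-2 in both libraries. By the exact binomial test, 8 of its 19 tested members were called, 2 with the higher level in replicate 2 and 6 with the higher level in replicate 1, with a median log2 ratio of -0.06. Over all genes 46.4% were called, 21.9% higher in replicate 2 and 24.4% higher in replicate 1. In its total of calls the list lay near that background. Its split by direction rests on 8 calls and was not tested.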

How the data were processed

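The authors deposited a table of unnormalized read counts for each library, made on mm10 with GENCODE M4, per the text that accompanies each sample. Which aligner and counter were used is not given in the sources used here. The first strand column, 97.6% of assigned reads in both libraries, was used as the sense count. Summary lines stayed out of the totals. Identifiers were matched without version to GENCODE M21 (GRCm38). Sequences came from RefSeq.

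Levels are CPM of the sense total, with the mean and SD of 2 libraries. With 1 group, no test between conditions exists. The exact binomial step was tested on simulated data with counting noise only and plain totals. That check does not cover variation between pools or the TMM scaling. The members and lists were chosen with earlier results of these data known. Named genes were the members, microRNA genes within 1000 bases of them, the 2 nearest genes in level on each side, and the 4 most abundant of the further lineage list. Marker hairpins named were those of the fixed lists. The labels describe the libraries as biological replicates from separate pools, so p-values reflect these 2 pools.

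Alternatives were the unstranded counts, other totals and scalings (TMM and edgeR's exact test from edgeR 4.0.16, DESeq2 1.42.0 size factors), other count minimums, a pseudocount, another SD limit and each library alone. Python 3.11.15, scipy 1.17.1, pandas 2.3.3, numpy 2.4.6, matplotlib 3.10.9 and R 4.3.3 were used.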

Additional observations from a re-analysis of the deposited data

Results flagged for a closer look

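The opposite strand of Mir219a-1, a column outside the main measurement, held 6 counts in replicate 2, above the 3 counts that a count of 0 allows. It held 3 counts in replicate 1. Mir219c is annotated on that strand.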

How the results depend on the processing

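The share of sense counts held by the 5 hairpins was 0.393% ± 0.0451 (SD, n = 2). It was 0.477% when the most abundant gene was left out of the total and 0.224% with multimapping reads in the total, both by construction of the total. It was 0.0417% with Mir338 alone, without the 4 hairpins that share a mature sequence. It lay between 0.361% and 0.425% with either library left out. All 10 pairs passed with unstranded counts, with a pseudocount of 1 CPM and with a limit of 3 SD, and no ratio changed sign in either library alone. The binomial test called 4 hairpins under all 6 scalings, minimums and strand settings tried, whereas edgeR, with a BCV of 0.1 assumed, called 0. The level of each hairpin moved by more than 1 SD under the same 2 changes of the total. Depth limits Mir219a-1 most, which rests on 583 counts in replicate 2. No paired analysis was possible because the series has 1 group.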
